A study of Mus musculus with 4 samples.

Results

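The genes described here encode collagens, other proteins of the extracellular matrix, enzymes that fold and crosslink collagen, and transporters and secreted factors known from the fibroblasts of the meninges. They are 37 genes, chosen by name with earlier results of these data known. They have 54 probes among the 56605 probes of the array, and a probe was assigned to a gene through its RefSeq accession. Each of 4 one-colour Agilent arrays, 2 control and 2 knockout (KO), held 150 ng of total RNA from the cerebellum of C57BL/6 mice at postnatal day 28. Per the labels, the controls were homozygous for the floxed allele of Derl2, and the KO mice came from crosses of floxed Derl2 mice with mice whose Cre recombinase is under the nestin promoter. The product of Derl2, Derlin-2, sits in the membrane of the endoplasmic reticulum (ER) and helps to export misfolded proteins for degradation. The nestin promoter is active in neural precursors, and the labels do not say whether cells of the meninges or vessels recombined, whether the controls carried Cre, or whether each array is 1 animal. P-values therefore measure only the spread between these arrays.

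The meninges are the connective tissue sheets that cover the brain. Their fibroblasts secrete fibrillar collagens and small proteoglycans, build the basement membrane on which the outer glial layer rests, and carry transporters that set them apart from fibroblasts elsewhere. Collagen is folded in the ER, where proline residues are hydroxylated and the chaperone HSP47, the product of Serpinh1, holds the triple helix until it leaves for the Golgi. In a dissected cerebellum these transcripts can come from the meninges that stay attached, and also from blood vessels, the choroid plexus and glia. In such bulk RNA, fewer cells of a type and less RNA per cell cannot be told apart.

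Levels are given as log2 of the processed signal less the 75th percentile of the array, so that 0 is the level of that percentile. Probes of different genes are not compared in level. On the control arrays 66.4% and 68.7% of spots were well above background and on the KO arrays 69.4% and 68.4%, with 0 saturated spots. Numbered in the order of the samples, the controls were arrays 1 and 2 and the KO arrays 3 and 4. If they lay on a slide in that order, position and group cannot be told apart. The brighter probe of the targeted gene, Derl2, read 2.13 and 2.20 in control and 0.81 and 0.70 in KO tissue, 37.6% of control. Its dimmer probe read 30.2% of control. Markers of granule cells (11 of 11) and Purkinje cells (10 of 10) passed the filter on dim probes, with median differences of −0.03 and −0.06. The array of control replicate 2 stood apart: the 11 detected choroid plexus markers summed to 147.5 there, on a linear scale in units of the 75th percentile, against 7.83 in control replicate 1 and 8.20 and 8.21 in the KO arrays. For many genes whose differences rest on control replicate 2, values are given with and without it.

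Of the 37 genes, 36 had a probe that stood well above background throughout 1 group or both, and all 36 of these probes were well above background on all 4 arrays. They are described on the brightest such probe. The exception was Col15a1, a collagen of basement membrane zones, whose brighter probe was well above background on 1 array of each group, at levels between −6.48 and −5.80 over the 4 arrays.

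No member gene passed the test of KO against control. With limma over 37516 probes, 0 of 36 genes had a Benjamini-Hochberg adjusted p under 0.05, against 0% of all probes. The smallest adjusted p among them was 0.273. Both probes of the targeted gene, Derl2, also had a limma adjusted p of 0.273 and did not pass. The count of 0 therefore does not show that the levels of the members were unchanged. Lamb1, Loxl1, Slc22a6, Bgn and Lum, 5 genes and all lower in KO, had an unadjusted p under 0.05. Of all probes, 14% met that limit, 5.19% lower and 8.85% higher. The values leaned downward: 28 of 36 genes (77.8%) had a lower mean in KO, against 54.8% of all probes. The median difference was −0.18 on the log2 scale, against −0.03 over all probes. Both KO arrays lay below both control arrays for 15 genes (41.7%), against 26.9% of all probes, and above them for 1 gene, Col12a1, against 22.4%. Those 16 genes of 36 stand against 49.4% of all probes in either direction. Scaling the arrays to spike-in probes gave 10 lower and 5 higher genes in place of 15 and 1. It also moved the median over all probes, from −0.03 to 0.04. With 2 arrays a group, an exact permutation test cannot give a two-sided p under 0.333. No gene differed at least 2-fold with groups that did not overlap, against 1.17% of all probes. At 1.5-fold there were 2, Lamb1 and Loxl1, both lower. Of all probes, 2.13% were lower and 3.71% higher by that rule, 5.84% in all. Without control replicate 2, 23 of 36 genes were lower in KO and the median was −0.13. Without KO replicate 1, 21 of 36 were lower and the median was −0.093. Without KO replicate 2, 32 of 36 were lower and the median was −0.316. Without control replicate 1 these values were 32 of 36 and −0.230.

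**Figure D1:**
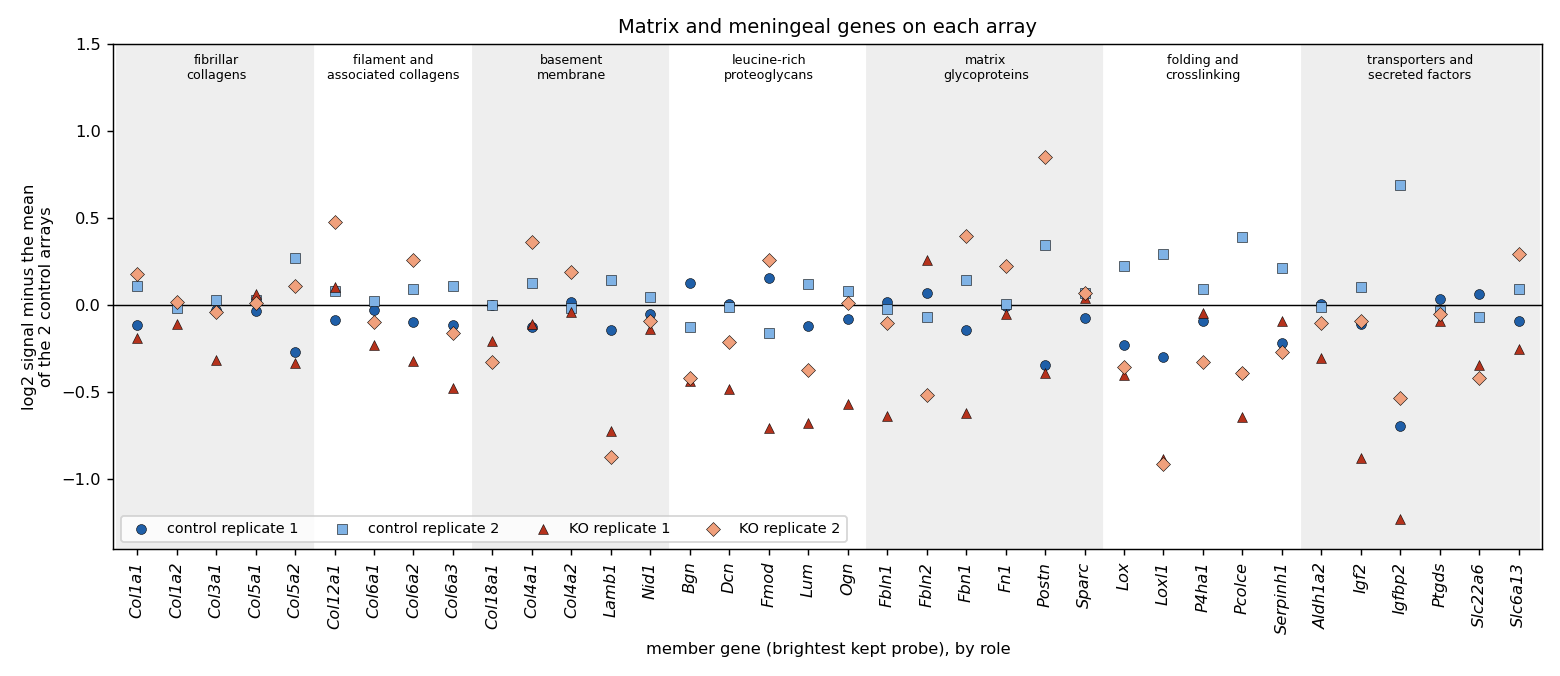
Level of 36 member genes on each array, as log2 signal less the mean of the 2 control arrays (y axis), with genes grouped by role (x axis). Each point is 1 array. Lamb1 and Loxl1 have both KO arrays 0.7 or more below the control mean, the control arrays of Igfbp2 lie far apart, and KO replicate 1 (dark triangle) is the lowest array for 25 of 36 genes.

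The upstream sequences of 3 members with different roles are shown because the ER response that acts on folding enzymes reads defined promoter elements: Lamb1, the basement membrane laminin chain with the smallest p; Col1a2, a main fibrillar collagen chain with close levels on all arrays; and Serpinh1, the ER chaperone of collagen. Each is the run of 250 bases before the gene's start in RefSeq (GRCm38.p6), 5′ to 3′ on the gene's strand, from chr12:31265043-31265292 (plus strand), chr6:4505368-4505617 (plus strand) and chr7:99353240-99353489 (minus strand). Capitals mark matches on either strand to the motifs searched.
Lamb1: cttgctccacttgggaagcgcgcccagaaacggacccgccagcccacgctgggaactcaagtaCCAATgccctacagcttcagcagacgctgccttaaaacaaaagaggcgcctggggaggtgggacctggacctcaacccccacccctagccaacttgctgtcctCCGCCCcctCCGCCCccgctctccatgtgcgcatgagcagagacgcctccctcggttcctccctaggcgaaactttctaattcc
Col1a2: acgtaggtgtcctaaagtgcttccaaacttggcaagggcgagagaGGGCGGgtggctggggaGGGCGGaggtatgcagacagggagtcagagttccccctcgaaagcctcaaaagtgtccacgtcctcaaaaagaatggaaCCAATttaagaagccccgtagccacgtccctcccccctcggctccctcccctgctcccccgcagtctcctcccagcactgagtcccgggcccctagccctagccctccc
Serpinh1: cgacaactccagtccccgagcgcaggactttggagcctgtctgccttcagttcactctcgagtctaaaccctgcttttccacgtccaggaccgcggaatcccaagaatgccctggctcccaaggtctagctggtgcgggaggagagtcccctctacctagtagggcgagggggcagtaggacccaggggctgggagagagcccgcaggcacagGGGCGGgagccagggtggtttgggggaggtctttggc

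The table of promoters held 39 windows for 29 of the 37 members, and 32851 windows in all; Col12a1, Col1a1, Col5a2, Dcn, Fn1, Lox, Loxl1 and Lum had none. The GC box GGGCGG was found in 19 member windows (48.7%), against 32.7% of all windows. The CCAAT box, CCAAT, was found in 10 (25.6%), against 33.8%. TATAAA was found in 3 (7.69%), against 12.4%, and the E-box CACGTG in 3 (7.69%), against 6.02%. The ER stress response element, CCAAT and CCACG with 9 bases of any kind between them, which contains a CCAAT box, was found in 0 member windows, against 0.113% of all windows. The heat shock element, GAA, TTC and GAA with 2 bases between each, was also found in 0, against 0.466%. Lamb1 held 1 CCAAT box and 2 GC boxes, as did Col1a2, and Serpinh1 held 1 GC box. A match describes letters in the window and is not a test of binding.

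The fibrillar collagens, which form the tensile fibres of connective tissue, had close levels in the 2 groups. Col1a1, which encodes the major chain of type I collagen, had levels of 1.18 and 1.41 in the controls and 1.11 and 1.47 in KO, and a second probe gave 0.95 and 1.26 against 0.89 and 1.26. KO replicate 1 was the lowest array on both probes, and the groups overlapped. Col1a2, the partner chain, had 3.62 and 3.59 in the controls and 3.49 and 3.62 in KO. The log2 differences were −0.0055 (SE 0.17, limma adjusted p 0.992) for Col1a1 and −0.045 (SE 0.11, adjusted p 0.862) for Col1a2. The 95% interval for Col1a2, from −0.33 to 0.24, leaves room for a modest shift either way. Col5a1, of the type V collagen that sets fibril diameter, differed by 0.039 (95% interval −0.23 to 0.31). Its partner Col5a2 differed by −0.11, and by 0.16 without control replicate 2. Col3a1, which encodes type III collagen of pliable tissues, had 0.79 and 0.85 in the controls and 0.51 and 0.78 in KO. Both KO arrays lay below both controls, by a mean of −0.18 (SE 0.14, adjusted p 0.583), but by −0.038 without KO replicate 1.

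Type VI collagen forms beaded filaments near cell surfaces, and its 3 chains had differences of −0.16 for Col6a1, −0.03 for Col6a2 and −0.32 for Col6a3. The groups did not overlap for Col6a1 and Col6a3. Without KO replicate 1 the differences were −0.098, 0.26 and −0.16, and without control replicate 2 that of Col6a3 was −0.20. The probes of Col6a3 disagreed: the brighter gave −2.42 and −2.19 in the controls and −2.78 and −2.46 in KO, while a dim probe gave −5.96 and −6.56 against −5.32 and −5.75. The dim probe was not well above background in control tissue, which leaves only a bound of at least 1.28-fold higher in KO, taken against the lowest signal well above background on each control array. It passed the filter on dim probes through KO alone. Col12a1, a collagen that decorates fibrils, was the only member higher on both KO arrays on its brightest probe (1 of 5 under spike-in scaling), with −2.95 and −2.78 in the controls and −2.76 and −2.38 in KO (difference 0.29, SE 0.17, limma adjusted p 0.489). Without KO replicate 2 the difference was 0.10. Its second probe differed by −0.0050.

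In the basement membrane group, Lamb1, which encodes the laminin beta-1 chain, stood apart from the collagen IV chains. Its brightest probe read 2.30 and 2.58 in the controls and 1.72 and 1.57 in KO. Both KO arrays lay well below both controls, at 57.5% of the control signal. The log2 difference was −0.80 (SE 0.15), with the smallest limma adjusted p in the set, 0.273. On 1 array its spot lay in an area where the local background was high. A second probe, free of such spots, gave −0.32 and −0.13 in the controls and −0.84 and −0.93 in KO, a difference of −0.66 (SE 0.12, adjusted p 0.273). The remaining and dimmest probe gave −2.41 and −2.19 against −1.92 and −2.43, a difference of 0.13, with groups that overlapped, so the probes of Lamb1 disagreed. Without control replicate 2 the difference of the brightest probe was −0.66.

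Col4a1 and Col4a2 encode the chains of the main network collagen of basement membranes, and their RefSeq starts lie 21 bases apart on opposite strands of chromosome 8. Col4a1 read 0.48 and 0.73 in the controls and 0.49 and 0.97 in KO, and Col4a2 −0.23 and −0.26 in the controls and −0.28 and −0.053 in KO. The highest array was KO replicate 2 for both, and the differences were 0.13 (SE 0.21) and 0.07 (SE 0.12). Nid1, which links laminin to collagen IV, differed by −0.11 with groups that did not overlap (−0.067 without control replicate 2), and its dim second probe by 0.030. Col18a1, the source of the fragment endostatin, read 2.55 on both control arrays and 2.35 and 2.22 in KO. Its difference of −0.26 (SE 0.11, adjusted p 0.376) became −0.27 without control replicate 2.

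The small leucine-rich proteoglycans bind collagen fibrils and limit their width. All 5 had lower means in KO, and KO replicate 1 was the lowest array for all 5. Lum (lumican) read −0.56 and −0.31 in the controls and −1.11 and −0.81 in KO. Both KO arrays lay below both controls, by −0.52 (SE 0.16, limma adjusted p 0.321). Dcn (decorin) read 3.60 and 3.59 in the controls and 3.11 and 3.38 in KO, a difference of −0.35 (SE 0.13, adjusted p 0.362). The 2 decorin controls were 0.016 apart, and the KO arrays lay further from each other than that. Bgn (biglycan) read −2.83 and −3.09 in the controls and −3.39 and −3.38 in KO, a difference of −0.42 (SE 0.13, adjusted p 0.312). Its KO arrays were close to each other. Ogn (osteoglycin) and Fmod (fibromodulin) overlapped between groups. Fmod read −0.059 and −0.37 in the controls and −0.92 and 0.045 in KO, so that it was lowest on one KO array and highest on the other. Ogn read 0.99 and 1.15 in the controls and 0.50 and 1.08 in KO. Without control replicate 2 the differences were −0.40 for Lum, −0.36 for Dcn and −0.55 for Bgn. Without KO replicate 1 they were −0.37, −0.21 and −0.42, and that of Ogn went from −0.28 to 0.010.

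The matrix glycoproteins had no common direction, with 3 higher and 3 lower means in KO. Sparc, a collagen-binding protein that glia and vessels also make, read 7.57 and 7.71 in the controls and 7.68 and 7.71 in KO. Fn1 (fibronectin), which cells use to lay down fibrils, differed by 0.09 on its brightest probe and by 0.050 and 0.16 on the others. For both genes the groups overlapped on the brightest probe. Fbln1 (fibulin-1), a protein of elastic fibres and basement membranes, read −0.73 and −0.77 in the controls and −1.38 and −0.85 in KO. Its groups did not overlap, with a difference of −0.37 (SE 0.20, adjusted p 0.474) that was −0.10 without KO replicate 1. Fbn1 (fibrillin-1, the core of microfibrils) read −2.35 and −2.07 in the controls and −2.83 and −1.81 in KO. Postn (periostin) read −4.03 and −3.34 in the controls and −4.08 and −2.84 in KO. In both genes KO replicate 1 was the lowest and KO replicate 2 the highest of the 4 arrays. Fbln2 (fibulin-2) went the other way, with −0.62 and −0.76 in the controls and −0.43 and −1.21 in KO.

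The enzymes and chaperones of collagen were each highest on the array of control replicate 2 (5 of 5 genes, against 22.8% of all probes). Loxl1, a lysyl oxidase that crosslinks elastin, had the largest difference of the set. It read −1.77 and −1.18 in the controls and −2.36 and −2.39 in KO, so that both KO arrays lay below both controls, at 53.7% of the control signal (difference −0.90, SE 0.22, limma adjusted p 0.283). Without control replicate 2 the difference was −0.60. Lox, which crosslinks collagen, read −2.67 and −2.21 in the controls and −2.84 and −2.79 in KO. Its difference of −0.38 became −0.15 without control replicate 2. Pcolce, which enhances the cleavage of procollagen, read 1.96 and 2.74 in the controls and 1.71 and 1.96 in KO. Here control replicate 2 alone was high, and the difference of −0.51 became −0.12 without it. Serpinh1 read 1.02 and 1.45 in the controls and 1.15 and 0.97 in KO, and P4ha1, a prolyl hydroxylase subunit, read −1.50 and −1.31 against −1.45 and −1.73. The groups overlapped for both. The 95% interval of Serpinh1 ran from −0.68 to 0.32, and without control replicate 2 its difference was 0.036.

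Among the transporters and secreted factors, Slc22a6, an organic anion transporter, read 0.72 and 0.58 in the controls and 0.31 and 0.23 in KO. The groups did not overlap (difference −0.38, SE 0.11, limma adjusted p 0.305), and without control replicate 2 the difference was −0.45. Slc6a13, a GABA and taurine transporter, read 1.03 and 1.22 in the controls and 0.88 and 1.42 in KO, with a difference of 0.021. Aldh1a2, which makes retinoic acid, read 0.86 and 0.84 in the controls and 0.55 and 0.75 in KO (difference −0.20, SE 0.12, adjusted p 0.491), and differed by −0.10 without KO replicate 1. Igf2, a growth factor that meninges and choroid plexus secrete, read 1.57 and 1.79 in the controls and 0.80 and 1.59 in KO. KO replicate 1 alone was low, and without it the difference of −0.49 was −0.093. The second probe of Igf2 read −1.32 and −1.05 against −1.69 and −1.25. Igfbp2, which binds insulin-like growth factors and is also made by the choroid plexus, read 0.58 and 1.96 in the controls and 0.046 and 0.74 in KO. Its control arrays differed by more than any other member's, and its difference of −0.88 (SE 0.53, adjusted p 0.501) became −0.19 without control replicate 2. Ptgds, the prostaglandin D synthase that oligodendrocytes and choroid plexus also make, read 7.69 and 7.63 in the controls and 7.57 and 7.61 in KO, a difference of −0.07 (95% interval −0.34 to 0.20).

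**Figure D2:**
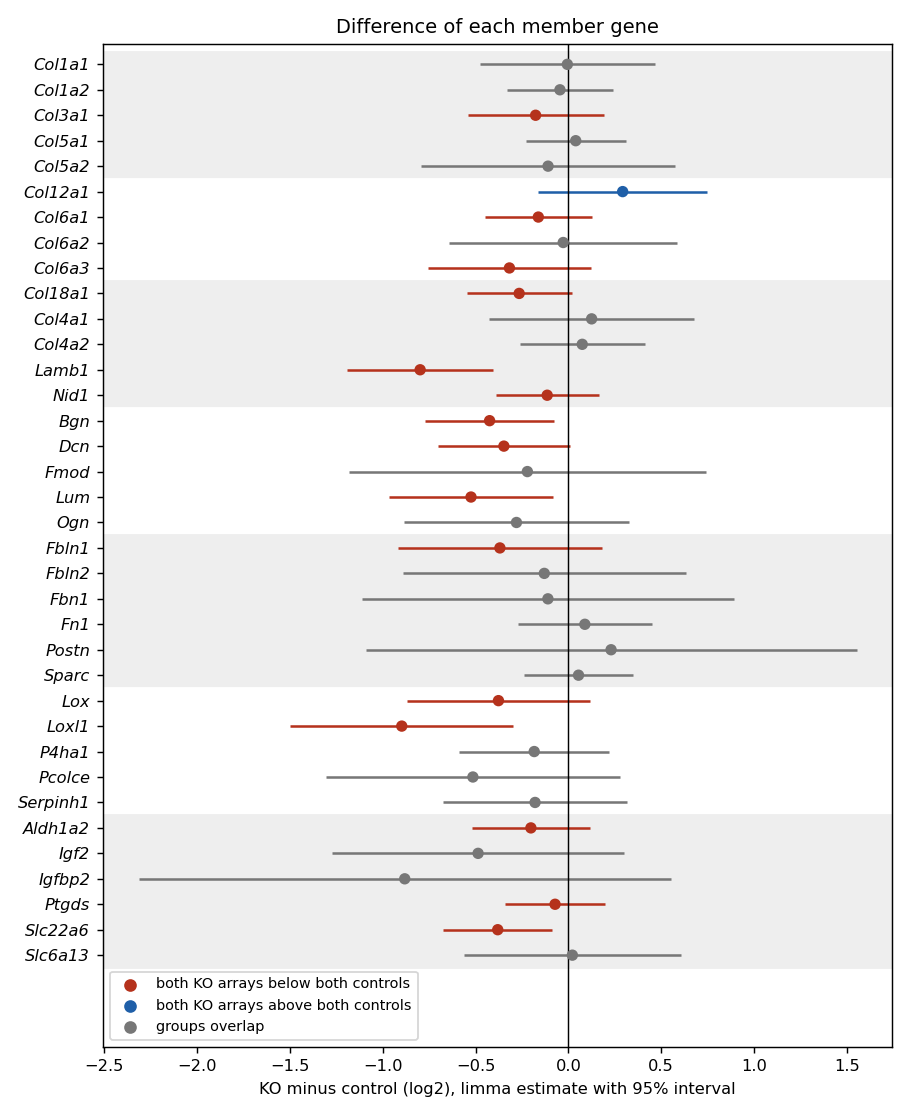
Difference between KO and control on the log2 scale (x axis) for the brightest probe of each member gene (y axis), as the limma estimate with its 95% interval, not adjusted for the number of genes. Red marks genes with both KO arrays below both controls (15 genes), blue both above (Col12a1; 5 genes under spike-in scaling), and grey groups that overlap; the intervals of 5 genes lie below 0.

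The KO arrays differed from each other in the matrix genes. KO replicate 2 was above KO replicate 1 for 28 of 36 genes (77.8%), against 46.4% of all probes, with a median gap of 0.26 against −0.02. KO replicate 1 was the lowest of the 4 arrays for 25 of 36 genes (69.4%), against 25.9% of all probes. The median difference was −0.32 with KO replicate 1 alone and −0.09 with KO replicate 2 alone. The widest gaps within KO were those of Postn at 1.24, Fbn1 at 1.02, Fmod at 0.96 and Igf2 at 0.79. The KO arrays of 14 members lay less than 0.2 apart, among them those of Lamb1, Loxl1, Lox, Bgn and Slc22a6, at most 0.15 apart. Such an ordering was not particular to the matrix genes. Of 12 oligodendrocyte markers, 10 were higher on KO replicate 2 than on KO replicate 1, and 8 were lowest on KO replicate 1. KO replicate 2 was also above KO replicate 1 for 8 of 8 border macrophage markers. For pericyte and smooth muscle markers that held for 5 of 12, and for endothelial markers for 6 of 12.

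Other fibroblast markers, none of them members, had the same ordering of the KO arrays. Of 18 with a kept probe, 15 were lowest on KO replicate 1, and their summed level came to 39.3 and 42.8 in control tissue, 30.4 in KO replicate 1 and 37.0 in KO replicate 2. They include the transcription factors Foxc1, at 0.0078 and 0.21 in the controls and −0.32 and 0.28 in KO, and Tbx18, at −1.38 and −1.42 in the controls and −2.10 and −1.41 in KO. Both were low on KO replicate 1 alone. The 3 with the smallest p were Islr at −0.56, Asgr1 at −0.43 and Gjb2 at −0.39, with limma adjusted p from 0.292 to 0.428. These were the only 3 of the 18 with both KO arrays below both controls, 16.7% against 26.9% of all probes. Crabp2, listed too, had no matched probe. Whether the amount of meninges on each cerebellum takes part in the values of the members was not tested.

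**Figure D3:**
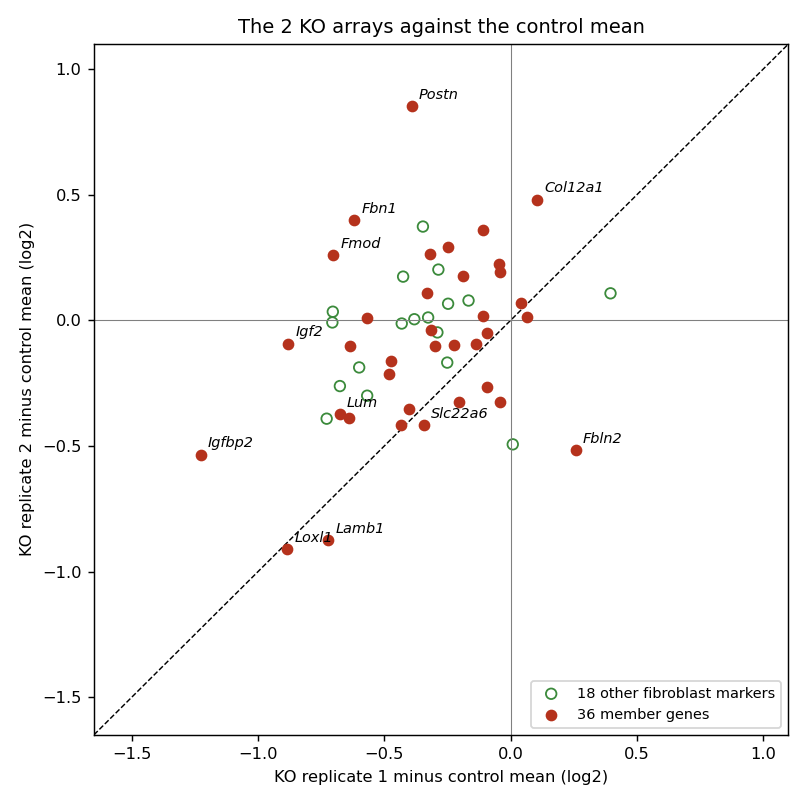
Level on KO replicate 1 (x axis) and KO replicate 2 (y axis), each as log2 signal less the mean of the 2 control arrays, for 36 member genes (filled) and 18 other fibroblast markers (open). Most points lie above the dashed line of equality, 28 of the 36 members among them, while Lamb1 and Loxl1 lie near the line and low on both arrays.

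Markers of other cells that a dissection could hold were set beside the members. The choroid plexus list (11 of 12 kept, Sostdc1 left out) had its highest level on control replicate 2 for 11 of 11 genes. Ttr, the thyroid hormone carrier of that epithelium, read −1.23 and 6.82 in the controls and 0.33 and −2.87 in KO. In that list Clic6 (−1.27), Calml4 (−1.78) and Prlr (−2.37) had the smallest p, and without control replicate 2 they differed by −0.41, −0.39 and −0.40. Against control replicate 1 alone the list's median was 0.083 on KO replicate 1 and −0.27 on KO replicate 2. Red blood cell markers (7 of 8 kept) were also highest on control replicate 2 for 7 of 7 genes, with summed levels of 424.2 and 629.6 in the controls and 424.1 and 424.8 in KO. The smallest p in that list were those of Alas2 (−0.54), Hba-a1 (−0.26) and Hbb-b2 (−0.95), which differed by −0.19, −0.027 and −0.39 without control replicate 2. Against control replicate 1 alone the list's median was −0.13 on KO replicate 1 and 0.15 on KO replicate 2. Of the members, 16 of 36 (44.4%) were highest on control replicate 2, against 22.8% of all probes. Igfbp2, Pcolce, Loxl1, Lox, Serpinh1, Lamb1 and Lum were among them. The part of choroid plexus RNA in these values was not tested. Pericyte and smooth muscle markers were lower in KO for 11 of 12 genes, with a median of −0.18 and both KO arrays lower for 7, 58.3% against 26.9% of all probes. Acta2 (−0.25), Tagln (−0.70) and Myh11 (−0.43), genes of the contractile apparatus, had the smallest p. The largest difference of that list was that of Cnn1 (−1.36), whose groups overlapped. Their levels summed to 31.1 and 30.5 in control tissue and to 25.8 and 27.0 in KO. Endothelial markers had a median of −0.11 over 12 genes, with the smallest p for Esam (−0.24), Cdh5 (−0.16) and Tie1 (−0.29). Border macrophage markers went the other way in their means, with 7 of 8 higher in KO and a median of 0.18. Both KO arrays were higher for 1 and lower for 1, 25% together against 49.4% of all probes. Against control replicate 1 alone the list's median was −0.22 on KO replicate 1 and 0.41 on KO replicate 2. Lyve1 (0.59), Ms4a7 (−0.26) and F13a1 (0.36) had the smallest p. No gene of these lists passed the adjusted threshold.

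**Figure D4:**
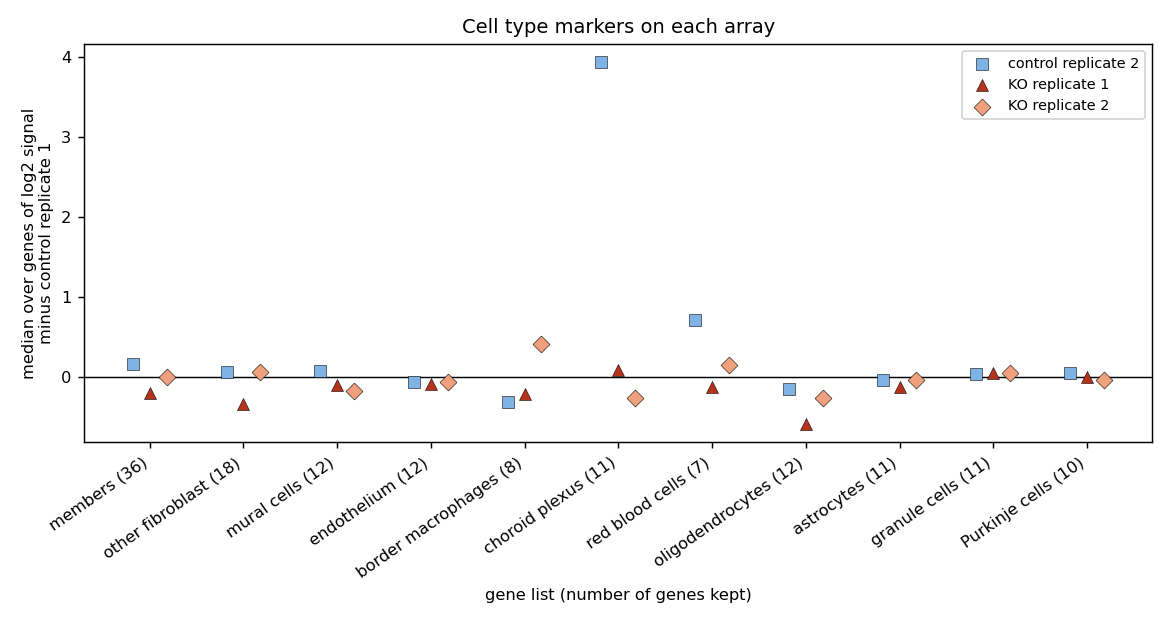
Median over each gene list of the log2 signal less that of control replicate 1 (y axis), for the other 3 arrays, with the number of genes kept in brackets (x axis). The choroid plexus median of control replicate 2 is 3.94. The member, other fibroblast and oligodendrocyte medians are among those lowest on KO replicate 1, at −0.20, −0.33 and −0.59.

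Oligodendrocyte markers, which bear on Ptgds, had a median of −0.32, with 11 of 12 genes lower in KO. Both KO arrays were lower for 8, 66.7% against 26.9% of all probes, and higher for 1. Opalin (−0.75) and Mag (−0.46) were lower on both KO arrays and Ermn (0.37) was higher on both; these 3 had the smallest p. In the astrocyte list, with a median of −0.05, the genes of smallest p were Hopx (−0.29), Slc1a3 (−0.18) and Slc1a2 (−0.15). In the granule cell list they were Zic2 (−0.17), Reln (0.14) and Cbln1 (−0.15). In the Purkinje cell list they included Slc1a6 (−0.25) and Car8, which read 3.99 and 3.13 in the controls and 1.02 and 3.78 in KO and so was low on KO replicate 1 alone.

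Other genes of the matrix pathways were read from lists of the known members of each pathway, and 0 of their genes passed the adjusted threshold. Of 25 kept genes for collagen folding and processing, 10 were higher and 15 lower in KO, with a median of −0.04. Both KO arrays were lower for 8 and higher for 2, 40.0% together against 49.4% of all probes. The 3 with the smallest p were the crosslinking enzyme Loxl2 (−0.51), the lysyl hydroxylase Plod1 (−0.42) and Crtap (−0.48), a partner of prolyl 3-hydroxylase. Of 24 other collagen chains, 9 were higher and 15 lower, with a median of −0.09. The smallest p were those of Col19a1 (0.47) and Col9a1 (0.54), higher on both KO arrays, and Col27a1 (−0.55), lower on both. Larger differences, named after their values were seen, were those of Col8a1 (−1.60), Col8a2 (−1.14) and Col2a1 (−0.98), each lower on both KO arrays and highest on control replicate 2. Without that array they were −0.41, −0.29 and −0.54. Col4a3, Col4a4, Col6a6, Col24a1 and Col28a1 had no kept probe.

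Among 14 other basement membrane genes, 12 were lower in KO and the median was −0.16. Both KO arrays were lower for 4 (28.6%), against 26.9% of all probes, and higher for 0. The laminin chains Lama3 (−0.57) and Lamb2 (−0.40) were among those with the smallest p. Each was lower on both KO arrays, as Lamb1 was on its 2 brighter probes. The groups overlapped for the laminin chains Lama1, Lama2, Lama4, Lama5, Lamc3 and Lamc1 (0.04). Among 15 matrix proteases and inhibitors, 10 were lower, with a median of −0.17. Mmp2, a gelatinase of fibroblasts, read −3.09 and −3.04 in the controls and −4.05 and −3.68 in KO, a difference of −0.80 (SE 0.16, limma adjusted p 0.273). Its groups were well apart. Mmp15 (−0.42) and Mmp17 (−0.40), both membrane-type proteases, followed. Among 12 receptors for collagen and matrix, 6 were higher and 6 lower, with the smallest p for the collagen-binding integrin Itga11 (−0.45), the hyaluronan receptor Cd44 (−0.32) and Itgav (−0.27).

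The last lists hold genes of growth factor and retinoic acid signalling. Of 16 TGF-beta genes, 4 were higher and 12 lower, with a median of −0.07 and the smallest p for the signal transducer Smad2 (−0.28), the receptor Tgfbr1 (−0.24) and the latent binding protein Ltbp2 (0.26). Of 12 genes for insulin-like growth factor receptors and binding proteins, 6 were higher and 6 lower. The binding proteins Igfbp6 (−0.44) and Igfbp4 (−0.37) were lower on both KO arrays. Igf2bp1, an RNA-binding protein of Igf2 messages and 1 of the 6 higher genes, was not well above background in control tissue and passed the filter on dim probes through KO alone. Its bound was at least 1.5-fold higher in KO. Of 11 genes for retinoic acid synthesis and binding, 3 were higher and 8 lower, with a median of −0.15. In that list Stra6, a retinol transporter, was higher on both KO arrays (0.43), and Rarb (−0.28), a retinoic acid receptor, was lower on both.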

How the data were processed

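Total RNA was labelled with Cy3 for one-colour Agilent arrays (labels' protocols). The sample titles gave group and replicate number. In the deposited scanner files the processed signal is a linear intensity from which Agilent Feature Extraction has subtracted the background, and per the file headers its version was 12.1.1.1; the submitters' processing notes name version 10.7.1.1. The authors' deposited series table holds log2 values whose scaling is not stated. Differences between its columns equalled those computed here within 0.01 for 100% of 35661 probes, and its column medians were 0.0071, −0.194, −0.160 and −0.222. Its values were read as centred per probe, on a baseline that is not stated.

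Log2 signals were averaged over the spots of a probe without control and outlier spots (65 to 176 per array), and the 75th percentile of each array was subtracted. A probe was kept where either group had it well above background on both of its arrays (37516 of 56605). Of 35886 probes with a RefSeq accession, 91.9% matched a table of GRCm38.p6, used for names. The test of KO against control used limma (version 3.58.1, R 4.3.3; lmFit, eBayes, no covariates; 4.35 degrees of freedom), with Benjamini-Hochberg adjustment over all kept probes, after tests on simulated data. Intervals are 95%, from the same fit. The number of arrays limits the precision.

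The members and lists were chosen with earlier results of these data known. By the rule for named genes, full values were due for Lamb1, Loxl1 and Igfbp2 and for the 3 genes of smallest p in each list, some of which are not reported here; the values of the other members and of Foxc1, Tbx18, Ttr and Cnn1 were chosen after they were seen. Flags of each spot, per the file headers, were used as deposited. Alternatives were other normalizations, filters, spots, variances, a replicate block and arrays left out. Promoter sequences are those of RefSeq, GRCm38.p6.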

Additional observations from a re-analysis of the deposited data

How the results depend on the processing

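The number of member genes past the adjusted threshold was 0 under the 15 alternatives that refitted the test. Over all probes that number, 0, became 1 under each of quantile normalization, scaling to spike-in probes, scaling to the median of detected probes and leaving out spots in areas of high local background, 2 under normexp with an offset of 50 and 4 under an intensity trend with robust variances. It ran from 0 to 91 with an array left out, with 91 without control replicate 2. Such fits take a lone array to vary as the other group does. The cause was not tested.

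The median over the members stayed below 0 under all 16 alternatives, from −0.316 without KO replicate 2 to −0.093 without KO replicate 1. Under spike-in scaling it was −0.111, where the median over all probes was 0.039 in place of −0.028. The number of genes with groups that did not overlap, 16, ran from 19 to 32 with an array left out (24 without control replicate 1, 29 without KO replicate 1 and 32 without KO replicate 2), when 70.4% to 78.2% of all probes met that rule because a group of 1 array overlaps less often. The number that differed at least 2-fold with groups apart, 0, ran from 0 to 2 with an array left out (2 without control replicate 1, 1 without KO replicate 2) and was 2 at a limit of 1.5-fold (Lamb1 and Loxl1). Of 36 genes, 19 kept the sign of their difference under all alternatives and 17 did not; for Col6a3 that rests only on averaging in a probe not well above background in control tissue. With all probes of a gene averaged, Lamb1 was −0.443 and Nid1 −0.042. The titles give both groups replicate numbers 1 and 2, but nothing says that these pair the animals. The deviations of same-numbered arrays correlated at 0.124 across probes. With the replicate block, 0 probes passed the adjusted threshold. The block and the intensity trend change only the variances. Under both, the 16 members with groups apart, the median of −0.178 and the signs could not change.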
